A study of Mus musculus with 25 samples.

Results

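C1qa, C1qb and C1qc encode the chains of complement component C1q. The 3 genes were taken by symbol from the table of expression values that the authors deposited, which lists 54532 genes, and all 3 were among the 16450 genes expressed highly enough to be tested. C1q is assembled from the A, B and C chains, each with a collagen-like stalk that joins into a bundle and a globular head that binds targets such as antibody complexes, apoptotic cells, amyloid and synapses. Bound C1q activates the proteases C1r and C1s, which cleave C4 and C2 and so lead to the deposition of C3, the part of the complement cascade known as the classical pathway. In the brain the 3 genes are transcribed mainly by microglia, and C1q and C3 are known for tagging synapses that microglia then remove.

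The data came from RNA sequencing of cortex from 25 mice, 5 separate animals in each of 5 groups. Wild-type mice received vehicle (WT_Veh) or the high dose of a compound labelled P (WT_HighP). Mice of the 5xFAD line received vehicle (AD_Veh), the low dose (AD_LowP) or the high dose (AD_HighP). The 5xFAD line carries transgenes, mutant human APP among them, under neuronal Thy1 regulatory sequences and develops amyloid plaques; all 3 AD groups carried them and both wild-type groups did not. P is described as a natural product derivative. No age, dose, route, duration or chemical identity was given in the sources used here. By Xist and Y-linked transcripts each group held 3 males, its replicates 1 to 3, and 2 females, its replicates 4 and 5. Levels are in FPKM, reads scaled to gene length and library depth, and the libraries held 15518358 to 17698222 reads assigned to genes. Thy1, part of which lies in the transgenes, was at 155 FPKM in WT_Veh and 458 in AD_Veh (log2 fold change 1.55, limma adjusted p = 1.8e-08), and mouse App was at 145 and 139 (adjusted p = 0.807). All 10 neuron markers listed for a cortical sample were detected in every group, and their summed level lay between 1367 and 1772 FPKM over the 25 libraries.

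The 3 genes lie side by side on the minus strand of mouse chromosome 4. In mm10, C1qb (ENSMUSG00000036905) occupies 136880129 to 136886187, C1qc (ENSMUSG00000036896) 136889804 to 136893065 and C1qa (ENSMUSG00000036887) 136895917 to 136898803, and each has 3 exons in its main annotated transcript. Gaps of 3616 and 2851 bp separate them, and no other annotated gene lies within the 18675 bp of the cluster. RefSeq's promoter table has no entry for C1qa, so no window of that gene was searched. The bases before the annotated starts of C1qb and C1qc are printed because the 3 transcripts of this cluster moved together over the mice. They are read on the minus strand, from RefSeq's promoter table for GRCm38.p6, as the 250 bases before the C1qb start (chr4:136886201-136886450) and the outermost 99 of the 250 bases before the C1qc start (chr4:136893066-136893164), since the rest lie inside the gene as deposited. Capitals mark a match to GAGGAAGT, a form of the site of PU.1, the myeloid transcription factor encoded by Spi1, read in reverse complement.
C1qb: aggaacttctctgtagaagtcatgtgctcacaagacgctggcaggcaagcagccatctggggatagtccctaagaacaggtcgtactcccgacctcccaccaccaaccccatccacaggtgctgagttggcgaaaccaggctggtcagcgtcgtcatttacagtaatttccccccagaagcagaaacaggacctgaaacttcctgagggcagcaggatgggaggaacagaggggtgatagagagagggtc
C1qc: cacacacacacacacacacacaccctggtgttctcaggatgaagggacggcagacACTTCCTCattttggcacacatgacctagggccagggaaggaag
Each window was searched on both strands for 4 motifs, and no match of one overlapped another. GAGGAAGT, the form of the PU.1 site searched, was present in 2.44% of 32851 promoter windows of 250 bases. It was found once in the C1qc window, 188 bases before the RefSeq start, and not in that of C1qb. The C1qb window does hold GAGGAA, the start of this string, and ACTTCCT, the reverse complement of the string without its first letter. Shorter or varied forms were not searched. Part of a recognition element for Maf factors, spelled TGCTGAC, was present in 3.81% of all windows and in neither of these. The interferon regulatory factor element (2.98% of windows) and the TATA box, searched as TATAAA (12.4%), were likewise found in neither window. The longest run of letters common to both windows was TGGTCAGC, 8 bases long and present in 0.992% of all windows. It lay 101 bases before the start of C1qb and 122 before that of C1qc, there beyond the 99 bases printed. In reverse complement it holds GCTGAC, the Maf string without its first letter. These are matches of letters only.

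The C1q transcripts were abundant. Averaged over the 25 libraries, C1qa stood at the 96.5th percentile of tested genes by FPKM, C1qb at the 96.7th and C1qc at the 91.1st. Each subunit had between 249 and 2448 reads in a library. The order of the group means was the same at both ends for all 3 subunits: AD_Veh was highest, the other AD groups followed, then WT_HighP, with WT_Veh lowest. AD_HighP exceeded WT_HighP beyond the spread between mice by the test across all genes. AD_LowP was not tested against WT_HighP, but all its mice lay above those of WT_HighP. The AD groups overlapped widely with each other, and the step from WT_HighP to WT_Veh did not pass.

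**Figure D1:**
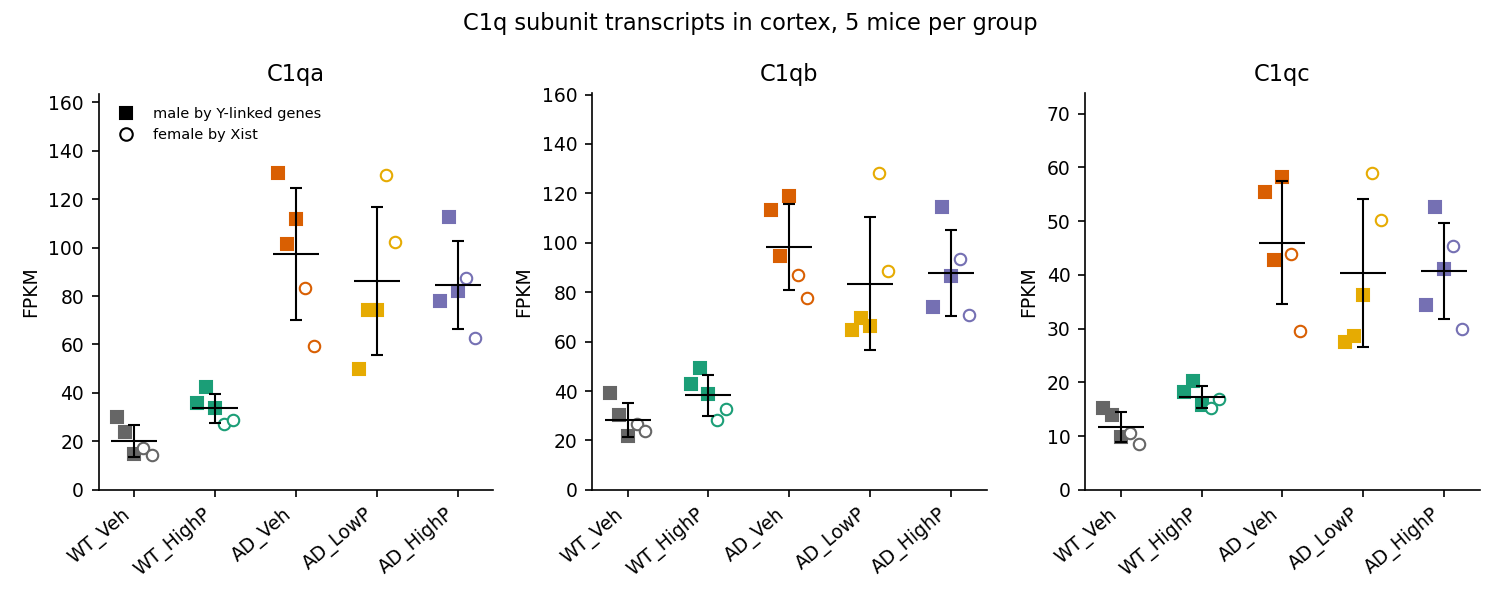
Level of C1qa, C1qb and C1qc in FPKM (vertical axes, linear) in each of the 25 mice, by group, with filled squares for males, open circles for females and bars for the group mean ± SD (n = 5). Every mouse of the 3 AD groups lies above every wild-type mouse in all 3 panels, and in AD_LowP the females lie above the males.

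The comparison of AD_Veh with WT_Veh asked how the transgenes changed the subunits without compound. All 3 rose, C1qa most. C1qa, which encodes the A chain, was at 29.9, 23.8, 14.9, 17.4 and 14.5 FPKM in replicates 1 to 5 of WT_Veh and at 131, 101.5, 112, 83.3 and 59.4 in AD_Veh. The lowest AD_Veh mouse, replicate 5, was still above the highest WT_Veh mouse, replicate 1. The mean went from 20.1 ± 6.65 to 97.4 ± 27.3 FPKM (SD, n = 5 each), a log2 fold change of 2.25 (SE 0.24) or 4.77-fold (95% interval 3.39 to 6.72, limma adjusted p = 5.29e-07). On this scale, log2(FPKM + 0.5), C1qa ranked 54 of 16450 genes by p.

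C1qb, which encodes the B chain, was at 39.2, 30.2, 21.7, 26.7 and 23.8 FPKM in WT_Veh and at 113.5, 94.6, 119, 87.0 and 77.6 in AD_Veh. The groups did not overlap, and replicate 5 was again the lowest of AD_Veh. Its mean went from 28.3 ± 6.85 to 98.3 ± 17.5 FPKM, a log2 fold change of 1.79 (SE 0.19) or 3.46-fold (95% interval 2.63 to 4.55, adjusted p = 6.69e-07). C1qc, which encodes the C chain, was at 15.2, 13.9, 9.89, 10.6 and 8.60 FPKM in WT_Veh and at 55.4, 42.7, 58.3, 43.8 and 29.6 in AD_Veh. Here too every AD_Veh mouse was above every WT_Veh mouse. Its mean went from 11.6 ± 2.78 to 46.0 ± 11.5 FPKM, a log2 fold change of 1.93 (SE 0.21) or 3.81-fold (95% interval 2.83 to 5.13, adjusted p = 7.3e-07).

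Against these 3 of 3 subunits called, 3.1% of all tested genes were called in this comparison, 2.83% as higher, and 3.02% had AD_Veh wholly above WT_Veh. An unadjusted limma p under 0.05 was reached by 1880 of the 16450 tested genes, 1164 of them higher and 716 lower. Males alone gave log2 fold changes of 2.35, 1.86 and 1.97 and females alone 2.11, 1.69 and 1.86 for C1qa, C1qb and C1qc, all called by limma (adjusted p between 5.42e-05 and 0.0124); over all 24 alternatives computed the adjusted p lay between 3.76e-09 and 0.0124. In RNA from whole tissue, more cells of a type and more RNA per cell cannot be told apart.

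The genes next to the cluster gave no such call. Ephb2, a receptor tyrosine kinase gene 44141 bp from the C1qb end, was at 1.24 FPKM in WT_Veh and 1.21 in AD_Veh (adjusted p = 0.974), and Epha8, another such gene 30616 bp from the C1qa end, was at 1.44 and 1.34 (adjusted p = 0.895). None of the 6 nearest tested genes was called in AD_Veh against WT_Veh (limma adjusted p from 0.895 to 0.998) or in WT_HighP against WT_Veh (0.215 to 0.954).

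The genotypes were also compared under the high dose. C1qa was at 35.9, 42.4, 33.9, 27.1 and 28.9 FPKM in WT_HighP and at 78.1, 113, 82.1, 87.6 and 62.7 in AD_HighP. C1qb was at 42.7, 49.3, 38.9, 28.2 and 32.5 in WT_HighP and at 74.2, 114, 86.5, 93.3 and 70.7 in AD_HighP. C1qc was at 18.2, 20.2, 15.7, 15.3 and 16.9 in WT_HighP and at 34.4, 52.6, 41.1, 45.4 and 29.9 in AD_HighP. For each subunit the AD_HighP mice lay wholly above the WT_HighP mice. The log2 fold changes were 1.31 for C1qa, 1.19 for C1qb and 1.19 for C1qc, that is 2.48-fold, 2.28-fold and 2.28-fold (limma adjusted p = 0.00174, 0.000429 and 0.0011). In this comparison 1.75% of all tested genes were called, 1.5% as higher, and 3.22% had AD_HighP wholly above WT_HighP.

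Whether high P acted differently in the 2 genotypes was tested as an interaction. The estimates were negative for all 3 subunits, at -0.94 (SE 0.34, 95% interval -1.64 to -0.25) for C1qa, -0.60 (SE 0.27) for C1qb and -0.74 (SE 0.29) for C1qc. Their unadjusted p-values were 0.0101, 0.0375 and 0.0196, and the adjusted p was 0.71 for each in limma. No gene was called in the interaction (0% of all tested), 1138 had an unadjusted p under 0.05, limma with voom on recovered reads called 0, and limma with array weights called 9, no subunit among them (adjusted p from 0.117 to 0.177).

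In wild-type mice given high P, the subunit means were higher than under vehicle, by amounts that did not pass the test across all genes. C1qa averaged 33.6 ± 6.06 FPKM against 20.1 ± 6.65 (log2 fold change 0.77, SE 0.24, 95% interval 0.27 to 1.26, unadjusted p = 0.00376, limma adjusted p = 0.062). Its lowest WT_HighP mice, at 27.1 and 28.9 FPKM, were below the highest WT_Veh mouse at 29.9, so the groups overlapped. C1qb averaged 38.3 ± 8.29 against 28.3 ± 6.85 (0.43, SE 0.19, 95% interval 0.04 to 0.83, adjusted p = 0.147) and overlapped more. C1qc averaged 17.3 ± 2.00 against 11.6 ± 2.78 (0.57, SE 0.21, 95% interval 0.14 to 1.00, adjusted p = 0.0892), and its highest WT_Veh mouse at 15.2 was just below its lowest WT_HighP mouse at 15.3. No subunit was called, where 3.17% of all tested genes were and 4.72% had WT_HighP wholly above WT_Veh. An unadjusted limma p under 0.05 was reached by 4581 of the 16450 tested genes, 2265 of them higher and 2316 lower. Over the 24 alternatives the adjusted p for C1qa lay between 0.0147 and 0.397, that for C1qb between 0.0509 and 0.83 and that for C1qc between 0.0387 and 0.572, so the side of the threshold depended on the processing for C1qa and C1qc.

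The base composition of the libraries moved with this comparison. In each library, the deviation of each gene from its mean was set against the GC content of its transcript, and the slope was expressed in log2 units per 10 GC points. The slopes lay between -0.291 and 0.0726 in WT_Veh and between 0.0983 and 0.232 in WT_HighP, with no overlap. The subunits are rich in GC, with 59.5% for C1qa, 57.4% for C1qb and 57.5% for C1qc against a median of 49.67% over tested genes. With the GC trend removed from each library, the WT_HighP against WT_Veh estimates were 0.40, 0.15 and 0.29 (limma adjusted p = 0.397, 0.815 and 0.536), and the number of genes called fell from 522 to 22. The genotype differences kept their size in that fit, at 2.16, 1.70 and 1.84 under vehicle (adjusted p = 3.76e-09, 4.27e-08 and 1.02e-08) and 1.45, 1.28 and 1.29 under high P (3.95e-06, 7.72e-06 and 5.93e-06). The share of reads from mitochondrial genes moved as well, at 5.89% to 6.64% in WT_Veh and 3.96% to 4.71% in WT_HighP with no overlap, against 3.63% to 6.84% over the AD groups; its part in the result was not tested. A marker of choroid plexus also differed: Ttr was above 100 FPKM in replicates 1 and 2 of WT_HighP and replicates 1 and 4 of AD_HighP and in no other library. Without these 4 libraries WT_HighP against WT_Veh gave 0.61 for C1qa, 0.25 for C1qb and 0.47 for C1qc (adjusted p = 0.322, 0.567 and 0.359), and AD_HighP against WT_HighP gave 1.47, 1.42 and 1.30 (0.0328, 0.00427 and 0.0284).

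**Figure D2:**
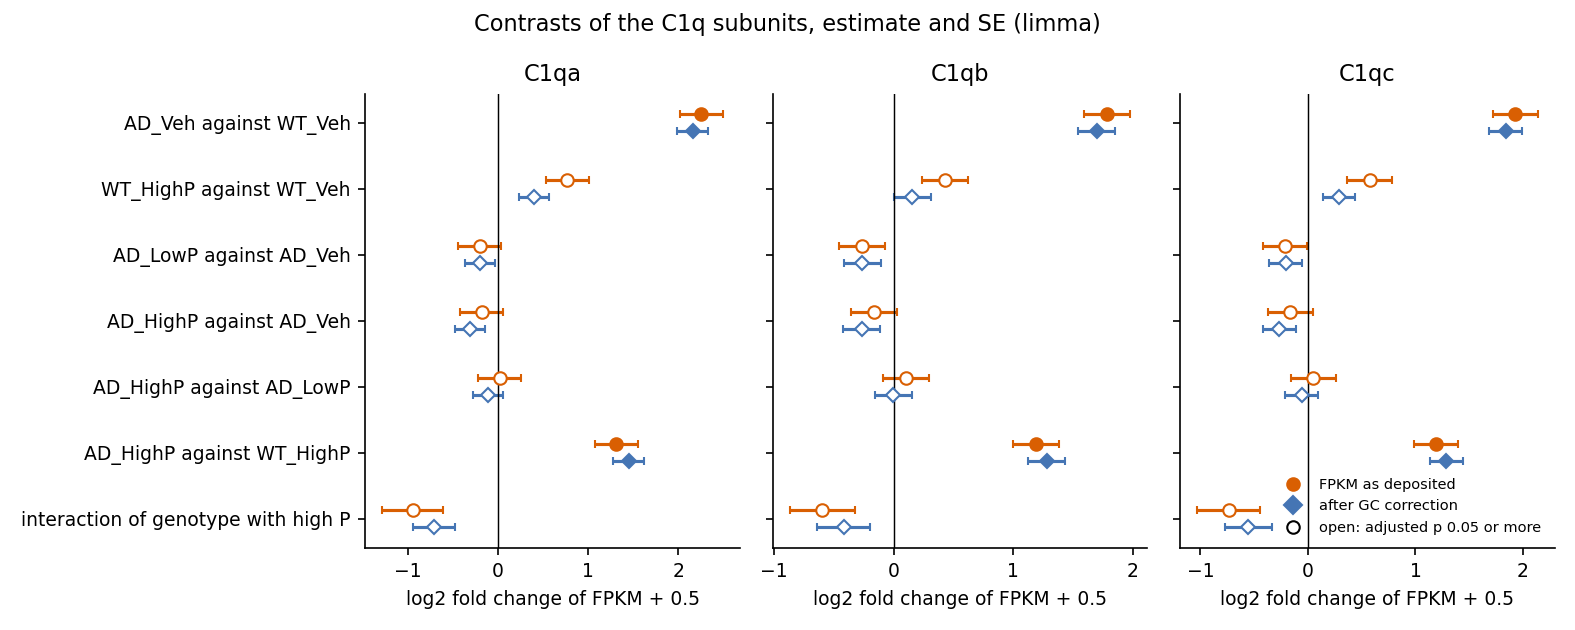
Log2 fold change ± SE of each subunit in each comparison, as deposited (orange circles) and with the GC trend of each library removed (blue diamonds), with open symbols at an adjusted p of 0.05 or more. Both genotype comparisons are filled under either processing, and the estimates for WT_HighP against WT_Veh move towards 0 with the correction.

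In 5xFAD mice neither dose gave a call for a subunit. C1qa was at 50.0, 74.2, 74.4, 129.8 and 102 FPKM in replicates 1 to 5 of AD_LowP, a mean of 86.2 ± 30.7. C1qb was at 64.5, 69.6, 66.4, 128 and 88.5 FPKM, a mean of 83.5 ± 26.8, and C1qc at 27.6, 28.6, 36.2, 59.0 and 50.3, a mean of 40.3 ± 13.8. These values spanned nearly the whole range of AD_Veh for each subunit, with replicates 4 and 5 high and replicates 1 to 3 low. Against AD_Veh the log2 fold changes were -0.20 for C1qa (95% interval -0.69 to 0.29), -0.27 for C1qb (-0.66 to 0.13) and -0.21 for C1qc (-0.64 to 0.22), with a limma adjusted p of 1 each. No gene was called in this comparison (0% of all tested), with 491 at an unadjusted p under 0.05 and 0 called by voom.

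AD_HighP averaged 84.6 ± 18.3 FPKM for C1qa, 87.8 ± 17.5 for C1qb and 40.7 ± 8.95 for C1qc, and overlapped AD_Veh throughout. The log2 fold changes against AD_Veh were -0.18 for C1qa (95% interval -0.67 to 0.32, adjusted p = 0.863), -0.17 for C1qb (-0.56 to 0.23, 0.834) and -0.16 for C1qc (-0.59 to 0.27, 0.854). In that comparison limma called 1 gene, 0.00608% of those tested, with 983 at an unadjusted p under 0.05 and 0 called by voom. AD_HighP and AD_LowP differed by 0.02 for C1qa (95% interval -0.47 to 0.52), 0.10 for C1qb (-0.29 to 0.50) and 0.05 for C1qc (-0.38 to 0.48), with adjusted p between 0.905 and 0.986. No gene was called between the doses (0% of all tested), with 1019 at an unadjusted p under 0.05 and 0 by voom.

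Within AD_LowP the high and low values divided by sex. C1qa averaged 66.2 FPKM in its 3 males and 116 in its 2 females, C1qb 66.8 and 108, and C1qc 30.8 and 54.6. In AD_Veh the order was the opposite, with 115 FPKM in males and 71.4 in females for C1qa, 109 and 82.3 for C1qb and 52.1 and 36.7 for C1qc. In the other 3 groups the male mean was likewise the higher for each subunit. The GC slopes of the AD_LowP libraries divided the same way, with the 3 males between -0.28 and 0.023 and both females at 0.16 log2 units per 10 GC points. In AD_Veh the slopes were higher in males, at -0.037 to 0.114, than in females, at -0.25 and -0.10. Male slopes were also the higher in WT_Veh (-0.151 to 0.0726, females -0.291 and -0.279) and AD_HighP (0.0697 to 0.176, females -0.086 and 0.037). Those of WT_HighP were 0.155 to 0.232 in males and 0.0983 and 0.189 in females.

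No difference between groups in the proportions of the 3 subunits passed the test. C1qb exceeded C1qa in 5 of 5 libraries of WT_Veh, 5 of WT_HighP, 3 of AD_Veh, 1 of AD_LowP and 4 of AD_HighP, and C1qc had the lowest FPKM in 25 of 25. The C1qb to C1qa ratio of FPKM had a geometric mean of 1.42 among WT_Veh mice (range 1.27 to 1.62), 1.13 among WT_HighP (1.04 to 1.19) and 1.03 among AD_Veh (0.868 to 1.30). It was 0.984 under low P and 1.04 under high P in 5xFAD mice. WT_Veh and WT_HighP did not overlap in this ratio, while WT_Veh and AD_Veh overlapped slightly. On the log2 scale it was lower by 0.47 in AD_Veh than in WT_Veh (two-sided exact permutation p = 0.0238) and by 0.33 in WT_HighP (exact p = 0.00794, the smallest that 5 against 5 mice can give). The C1qc to C1qa ratio was 0.599 among WT_Veh mice and 0.524 among WT_HighP, against 0.478 in vehicle-treated 5xFAD mice, 0.474 under low P and 0.483 under high P. Its log2 value was lower by 0.33 in AD_Veh than in WT_Veh (exact p = 0.0238). The C1qc to C1qb ratio lay between 0.421 and 0.482 in all groups. Adjusted over the 18 ratio tests, the smallest exact p was 0.143. A single ratio at 0.00794 would get that same adjusted value, so a difference in a lone ratio could not have passed.

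The low FPKM of C1qc depended on the length used. The deposited length of C1qc, 1931 bp, is the union of all annotated exons and includes 728 bp that only an intron-retaining transcript covers, whereas its 3-exon transcript has 1203 bp. On that length C1qc averaged 18.7 ± 4.47 (WT_Veh) and 27.7 ± 3.20 FPKM (WT_HighP) in wild-type mice, and 73.8 ± 18.4 (AD_Veh), 64.7 ± 22.2 (AD_LowP) and 65.3 ± 14.4 FPKM (AD_HighP) in 5xFAD mice. It remained the lowest of the 3 in 24 of 25 libraries, with lengths of 1040 bp for C1qa and 1088 bp for C1qb as deposited. Differences between groups are not affected by this length, apart from the pseudocount.

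In AD_Veh the subunits rose further than the mean of 15 markers of homeostatic microglia, the cells that make them. For each mouse, the mean log2 level of the markers was subtracted from the log2 level of each subunit. C1qa stood above the marker mean by 1.48 ± 0.36 log2 units in wild-type mice given vehicle and 2.28 ± 0.09 in those given high P. In 5xFAD mice it stood above it by 2.86 ± 0.48 under vehicle, 2.84 ± 0.56 under low P and 2.93 ± 0.24 under high P. AD_Veh exceeded WT_Veh by 1.39 for C1qa, 0.92 for C1qb and 1.06 for C1qc (two-sided exact permutation p = 0.00794 each, adjusted p = 0.0179 over 18 tests), and AD_HighP exceeded WT_HighP by 0.65, 0.53 and 0.53 (adjusted exact p = 0.0179). WT_HighP exceeded WT_Veh by 0.80, 0.47 and 0.61 (adjusted exact p = 0.0179, 0.0317 and 0.0179). With the GC trend removed these last differences were 0.40, 0.16 and 0.29, of which that of C1qb no longer passed (adjusted exact p = 0.619). The corrected levels of C1qa and C1qc, which still passed, kept a correlation with the GC slope within groups (r = 0.555 and 0.572, against 0.292 for C1qb). The part of the slope in their differences was not tested. Between AD groups the relative levels differed by -0.09 to 0.17, with adjusted exact p between 0.814 and 0.921. The result also depends on the markers: of 2 single markers tried as the reference in place of the mean, the differences of AD_Veh from WT_Veh passed with 1 and did not pass with the other.

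**Figure D3:**
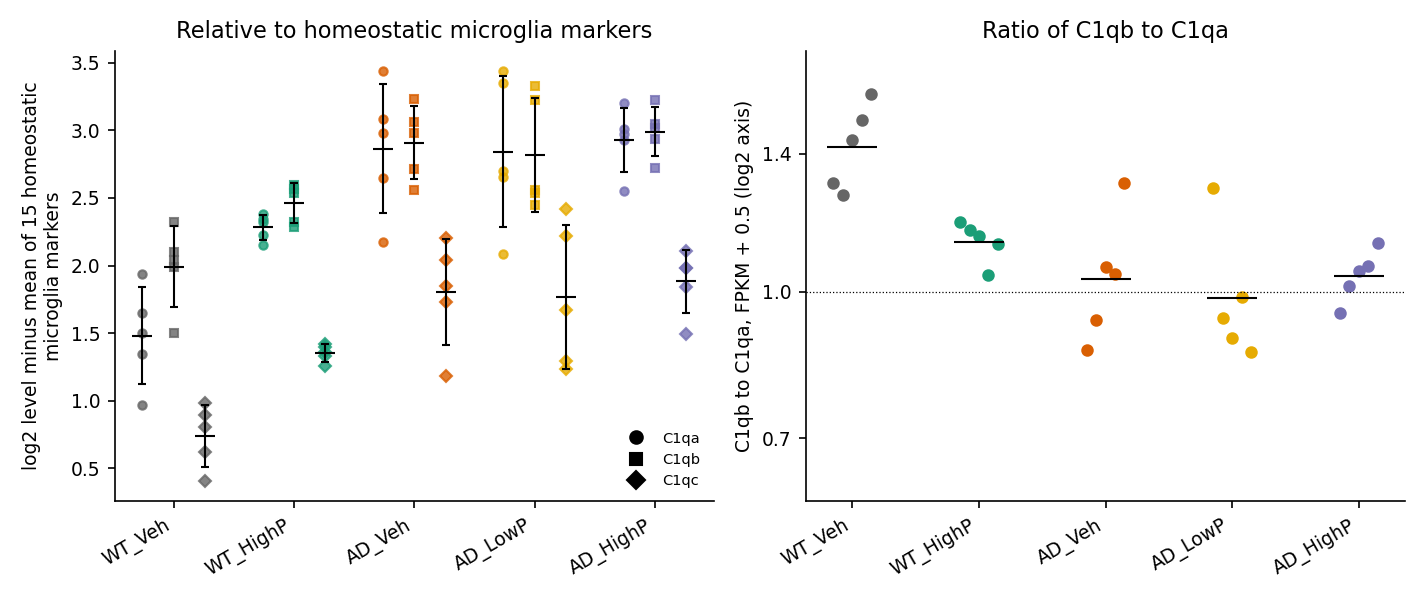
Left, level of each subunit minus the mean of 15 homeostatic microglia markers (log2 units) per mouse, with group mean ± SD; right, the C1qb to C1qa ratio of FPKM per mouse on a log2 axis, with a dash at the geometric mean. In the left panel the AD groups stand highest and WT_Veh lowest, and in the right panel WT_Veh, between 1.27 and 1.62, stands highest.

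Coexpression of the subunits was measured over mice within each genotype, since wild-type and 5xFAD mice form separate clusters. The treatment groups of a genotype were pooled and mice permuted across them, so differences between those groups enter r and its p. Over the 10 wild-type mice, on log2(FPKM + 0.5), C1qa and C1qb correlated at r = 0.949 and rho = 0.964 (permutation test, adjusted p = 2.4e-05 and 0.00012), C1qa and C1qc at r = 0.977 and rho = 0.939 (2.4e-05 and 0.00029), and C1qb and C1qc at r = 0.889 and rho = 0.879 (0.00044 and 0.0016). Over the 15 5xFAD mice the same pairs gave r = 0.903 and rho = 0.914 (permutation, adjusted p = 2e-05 and 4e-05), r = 0.939 and rho = 0.957 (2e-05 and 3e-05), and r = 0.927 and rho = 0.925 (2e-05 and 3e-05). The adjustment was over 6 relations for each coefficient, and 1e-05 is the smallest unadjusted p that the 100000 permutations can give. Without the 2 mice farthest from the median of the first gene, r was 0.910, 0.957 and 0.823 in wild-type mice and 0.886, 0.933 and 0.898 in 5xFAD mice. With the GC trend removed, r was 0.877, 0.941 and 0.748 in wild-type mice (adjusted permutation p = 0.0011, 0.00018 and 0.014) and 0.856, 0.886 and 0.870 in 5xFAD mice (0.00014, 6e-05 and 6e-05); there the wild-type C1qb and C1qc pair fell to r = 0.488 without the 2 farthest mice. As deviations from the 5 group means over 25 mice, r was 0.919, 0.932 and 0.884.

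The subunits also followed the GC slope of their library. As deviations from the group means over 25 mice, the slope correlated at r = 0.823 and rho = 0.811 with C1qa (permutation within groups, adjusted p = 0.00027 and 0.00018 over 9 relations), r = 0.649 and rho = 0.593 with C1qb (0.0061 and 0.013) and r = 0.805 and rho = 0.73 with C1qc (0.0011 and 0.0058). Leaving out the 2 mice with the most distant slopes gave 0.827, 0.622 and 0.757. With the mean of the homeostatic markers the subunits gave r = 0.323, 0.483 and 0.338 and rho = 0.379, 0.456 and 0.394 (adjusted permutation p for r = 0.15, 0.042 and 0.13, for rho 0.088, 0.052 and 0.08, and r = 0.387, 0.565 and 0.436 without the 2 farthest mice). The mean of the plaque-associated markers gave r = 0.46, 0.482 and 0.534 and rho = 0.441, 0.578 and 0.485 (adjusted permutation p for r = 0.037, 0.024 and 0.024, for rho 0.052, 0.013 and 0.045, and r = 0.522, 0.483 and 0.538 without the 2 farthest). With the GC trend removed from the subunits and markers, r was 0.555, 0.292 and 0.572 with the slope, 0.488, 0.598 and 0.496 with the homeostatic mean, and 0.593, 0.55 and 0.672 with the plaque-associated mean. The slope thus gave the highest of the 3 coefficients for each subunit as deposited and for none after the correction. Whether these coefficients differ from each other was not tested.

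**Figure D4:**
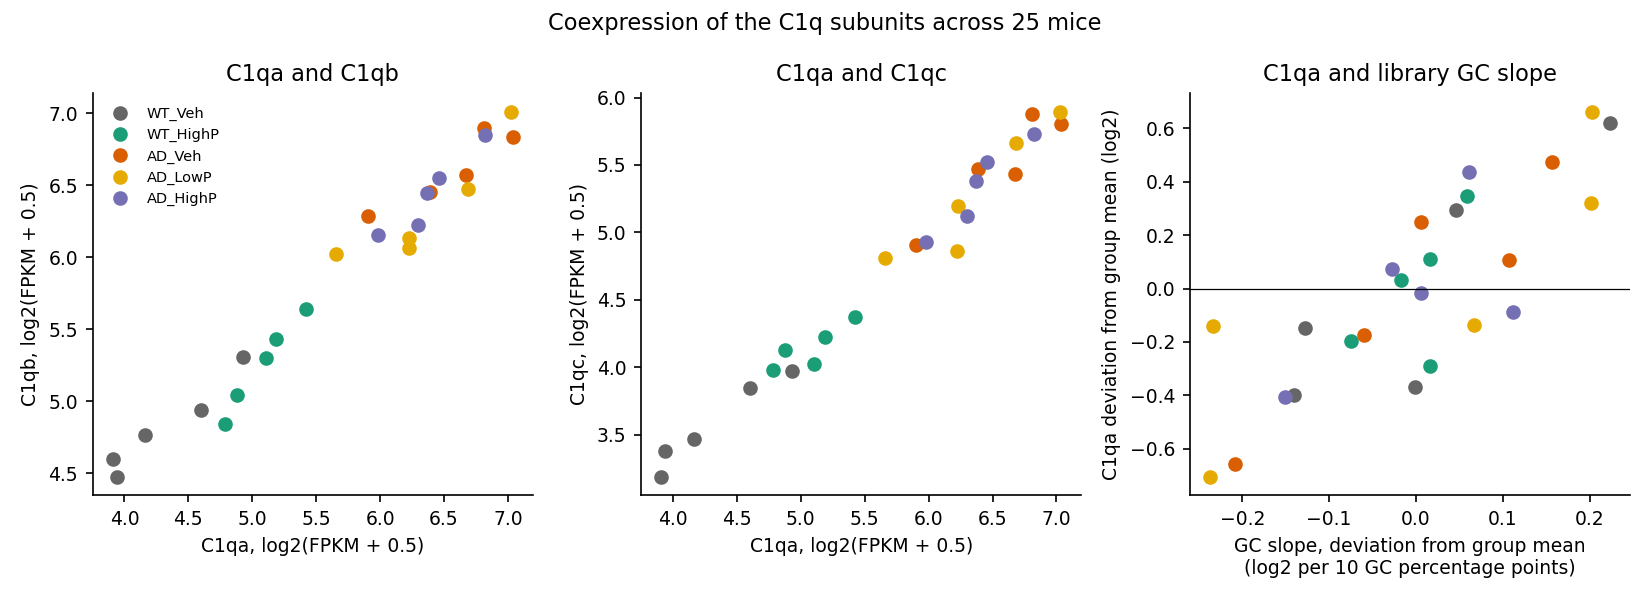
C1qa against C1qb and against C1qc (log2(FPKM + 0.5)) and, in the last panel, the deviation of C1qa from its group mean against that of the library's GC slope, with 1 point per mouse coloured by group. The points of each genotype follow a line in the first 2 panels, with r between 0.903 and 0.977, and C1qa rises with the slope in the last (r = 0.823).

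Among 13112 genes averaging at least 1 FPKM, the subunits ranked among the 3 most like each other by r over deviations from the group means. C1qc ranked 1 and C1qb 3 for C1qa, with Ftl1 between them, C1qa ranked 1 and C1qc 2 for C1qb, and C1qa ranked 1 and C1qb 2 for C1qc. After removal of the GC trend C1qb ranked 2 and C1qc 3 for C1qa, behind Trem2, C1qa ranked 1 and C1qc 3 for C1qb, and C1qa ranked 1 and C1qb 3 for C1qc. Of the 10 other genes with the highest mean r to the 3 subunits, 9 are named here, namely Ftl1 (ferritin light chain, 0.886), Fxyd1 (a regulator of the sodium pump, 0.853), Ctsa (a lysosomal carboxypeptidase, 0.851), Ltc4s (leukotriene C4 synthase, 0.834), Apoe (a lipoprotein made by glia, 0.828), Cebpb (a transcription factor, 0.824), Sh3gl1 (0.813), Sipa1 (0.812) and Tmbim6 (0.808). The median over all 13112 genes was 0.0211, and 1949 genes were above 0.5. With the GC trend removed, 249 genes were above 0.5, and the 10 highest included Trem2 (0.806), Ftl1 (0.751), Fxyd1 (0.743), Ifitm3 (0.731), Ctsa (0.730), Lgals3bp (0.722), Tlr2 (0.722), Ssr3 (0.717) and Cd9 (0.709). Only Ftl1, Fxyd1 and Ctsa were in both sets of 10, and 40 genes were in both sets of 100. Trem2, a lipid receptor of microglia, had been at rank 12. These genes were picked by their correlation, so the values are a description.

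Of the genes most like the subunits, Trem2 was higher in AD_Veh than in WT_Veh by a log2 fold change of 2.51 (2.17 to 14.7 FPKM, adjusted p = 2.44e-10). Ctsa rose from 16.8 to 29.1 FPKM (0.77, adjusted p = 1.88e-05), Fxyd1 from 3.90 to 7.99 (0.95, adjusted p = 0.013) and Apoe from 269 to 548 (1.06, adjusted p = 0.0219). Apoe was also called in WT_HighP at 579 FPKM (1.15, adjusted p = 0.0356), though not with the GC trend removed (0.78, adjusted p = 0.0653). Ftl1 was at 65.5 FPKM in WT_Veh, 89.7 in AD_Veh (0.45, adjusted p = 0.0888) and 93.1 in WT_HighP (0.51, adjusted p = 0.0461). Ftl1 was called in AD_Veh once the GC trend was removed (0.36, adjusted p = 0.00894) and not in WT_HighP (0.20, adjusted p = 0.367).

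Further along the classical pathway, 2 of 4 tested genes rose in AD_Veh against WT_Veh and none fell, where 2.83% of all tested genes were called higher. The median log2 fold change of the 4 was 0.84, against -0.0166 over all tested genes. C1ra and C1s1, the proteases that C1q activates, were low and not called, at 0.763 and 1.09 FPKM for C1ra (adjusted p = 0.865) and 0.379 and 0.451 for C1s1 (adjusted p = 0.904) in WT_Veh and AD_Veh. C4b, their substrate, rose from 5.99 ± 1.11 to 68.9 ± 17.5 FPKM (log2 3.40, adjusted p = 1.7e-10), more than any C1q subunit, with 8.74 in WT_HighP, 56.1 in AD_LowP and 55.7 in AD_HighP; its close copy C4a may share its reads. C3, whose fragments tag targets, rose from 0.13 to 1.17 FPKM (1.42, adjusted p = 2.82e-05). The WT_Veh mean of C3 was under the 0.5 FPKM filter, so C3 reached the test through libraries of other groups. It is counted among the 2 that rose. C1rb, C1s2, C2 and C4a were too low to test, with group means up to 0.053, 0.076, 0.375 and 0.127 FPKM. In AD_HighP against WT_HighP C4b was called (2.61, adjusted p = 2.86e-08) and C3 was not (0.22, adjusted p = 0.764). In WT_HighP against WT_Veh none of the 4 was called by limma, and 2 were higher at an unadjusted p under 0.05. Over all 16450 tested genes, 2265 were higher in that comparison by the same measure.

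Among receptors for C1q and for C3 and C4 fragments, 5 of 11 tested rose in AD_Veh and none fell (median 0.55). The share called higher there over all tested genes was 2.83%. Itgax, a subunit of complement receptor 4, rose from 0.0648 to 7.95 FPKM (log2 3.83, adjusted p = 1.49e-11), and Itgb2, the beta chain shared by complement receptors 3 and 4, from 2.03 to 8.11 (1.76, adjusted p = 8.59e-09). Itgax, counted among the 5, was under the 0.5 FPKM filter in WT_Veh and reached the test through libraries of other groups. C3ar1, the receptor for C3a, rose from 0.922 to 3.16 FPKM (1.37, adjusted p = 4.8e-07) and Itgam, the alpha chain of complement receptor 3, from 0.888 to 2.21 (0.97, adjusted p = 0.00205). Lair1, an inhibitory receptor with collagen-like ligands, was the fifth (0.89, adjusted p = 6.84e-05). In WT_HighP against WT_Veh 0 of 11 were called, with 1 higher and 1 lower at an unadjusted p under 0.05. Over all 16450 tested genes, 2265 were higher and 2316 lower by the same measure.

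Of 16 regulators tested, 2 rose in AD_Veh and none fell (median -0.03), where 2.83% of all tested genes were called higher. Serping1, the C1 inhibitor, which shuts off C1r and C1s, rose from 1.56 to 3.67 FPKM (log2 1.01, adjusted p = 0.0182). Clu, a chaperone that blocks the terminal complex, rose from 181 to 260 FPKM (0.53, adjusted p = 0.00359). Among the lists outside the classical pathway, 0 of 2 lectin pathway genes (0 at an unadjusted p under 0.05) and 0 of 2 genes of the alternative and terminal pathway (1 lower) were called by limma; the latter was Cfp, properdin, which was singled out after its values were seen, at 2.16 FPKM in WT_Veh and 1.16 in AD_Veh (-0.65, adjusted p = 0.0536). Cfp was called lower with the GC trend removed (-0.73, adjusted p = 0.0249). Over all 16450 tested genes, 1164 were higher and 716 lower in AD_Veh at an unadjusted p under 0.05.

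Genes for proteins that share the globular C1q domain, or that bind C1q at synapses, gave no call between the vehicle groups. Of 16 tested relatives with a C1q domain, 0 were called in AD_Veh against WT_Veh (0 at an unadjusted p under 0.05, median 0.09). The 2 most abundant were C1qtnf4 (163 FPKM in WT_Veh, 173 in AD_Veh) and the synaptic organiser C1ql3 (19.6 and 17.0). In WT_HighP against WT_Veh 1 of the 16 was called, C1ql1, at 4.77 and 8.97 FPKM (0.92, adjusted p = 0.0473), named here after its value was seen, and 7 were higher at an unadjusted p under 0.05. Over all 16450 tested genes, 2265 were higher by the same measure. C1ql1 was no longer called with the GC trend removed (0.29, adjusted p = 0.762). Of 3 tested neuronal pentraxins, which bind C1q, 0 were called in AD_Veh (0 at an unadjusted p under 0.05). In AD_HighP against WT_HighP 1 was called lower, Nptx2, named here after its value was seen (24.1 FPKM in WT_HighP and 12.99 in AD_HighP, -0.87, limma adjusted p = 0.00564). In that comparison 0.255% of all tested genes were called lower.

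Of 9 tested transcription factors of myeloid cells, 5 rose in AD_Veh and none fell (median 0.86), where 2.83% of all tested genes were called higher. Cebpa rose from 4.52 to 13.1 FPKM (log2 1.43, adjusted p = 4.56e-07), Irf8 from 0.807 to 2.82 (1.33, adjusted p = 1.13e-05), Spi1, which encodes PU.1, from 1.11 to 3.16 (1.18, adjusted p = 0.000571) and Irf5 from 1.15 to 2.54 (0.88, adjusted p = 0.00131). Cebpa alone of these was called in WT_HighP against WT_Veh, at 7.99 FPKM (0.76, adjusted p = 0.0263), and with the GC trend removed it was not (0.26, adjusted p = 0.491). The list's median correlation with the subunits over deviations from group means was 0.696, and 0.455 with the GC trend removed.

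Markers of the cells that make C1q rose with it. Of 15 homeostatic microglia markers 9 rose in AD_Veh (median 0.66), among them Fcrls (log2 1.63), Olfml3 (1.32) and the fractalkine receptor Cx3cr1 (11.96 to 28.5 FPKM, 1.23). Of 20 plaque-associated microglia markers 19 rose (median 1.81), led by the cystatin Cst7 (0.401 to 56.8 FPKM, 6.01), Itgax, the lectin Clec7a (3.81) and the glycoprotein Gpnmb (3.07). Beside both counts, 2.83% of all tested genes were called higher in AD_Veh against WT_Veh. The WT_Veh means of Cst7 and Itgax were under the 0.5 FPKM filter, so their place among tested genes depended on libraries of other groups. The summed homeostatic markers lay between 117 and 160 FPKM (WT_Veh), 117 and 162 (WT_HighP), 287 and 344 (AD_Veh), 233 and 296 (AD_LowP), and 219 and 290 (AD_HighP). The summed C1q subunits lay between 46.5 and 84.3, 70.5 and 112, 167 and 300, 142 and 317, and 163 and 280 FPKM in the same order. The ranges of WT_HighP and WT_Veh nearly coincided for the markers and were shifted, though overlapping, for the subunits, none of which was called. The median log2 fold change of the 3 subunits in that comparison was 0.57 as deposited and 0.29 with the GC trend removed. Of either marker list 0 were called in WT_HighP against WT_Veh by limma, with 3 plaque-associated ones higher and 2 of each list lower at an unadjusted p under 0.05. Over all 16450 tested genes, 2265 were higher and 2316 lower by the same measure.

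Markers of other cells that can express C1q were scarce. The 10 border-associated macrophage markers summed to between 2.83 and 8.52 FPKM over all 25 libraries, and 0 of 5 tested were called in AD_Veh against WT_Veh (1 higher at an unadjusted p under 0.05). Over all 16450 tested genes, 1164 were higher by the same measure. The 12 blood leukocyte markers summed to between 0.202 and 5.69 FPKM, 10 of them were too low to test, and 0 of the other 2 were called (0 at an unadjusted p under 0.05). Among 10 markers each, astrocytes had 1 higher, Aqp4 (log2 0.93, adjusted p = 0.00773), and neurons, oligodendrocytes and endothelial and mural cells had 0 called (0, 2 and 0 higher at an unadjusted p under 0.05). The share called higher over all tested genes in AD_Veh against WT_Veh was 2.83%. Choroid plexus and meningeal markers also had 0 called in that comparison (0 of 6 and 0 of 8, with 0 at an unadjusted p under 0.05), and choroid plexus markers summed to as much as 858 FPKM in WT_HighP and 824 in AD_HighP, in libraries with high Ttr.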

How the data were processed

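Strand-specific libraries were made from poly(A)-selected cortical RNA by random priming, size selection and PCR (per the labels' protocols). HISAT2 and mm10 served for alignment, per the submitters' processing notes; its version, the counting tool and the annotation were not given in the sources used here. The authors deposited FPKM values with a length for each gene. FPKM multiplied by length gave whole reads for 100% of nonzero values (tolerance 0.01 of a read), 15518358 to 17698222 per library. PCR duplicates cannot be told from other reads in such a table.

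Groups and replicate numbers came from the labels. The 16450 genes that reached 0.5 FPKM in 5 or more libraries were tested on log2(FPKM + 0.5), which understates changes of low genes. All 25 libraries entered a linear model of group means in limma 3.58.1 with R 4.3.3 (data.table, version 1.17.8), with variances following intensity and 20 residual degrees of freedom. Tests were two-sided, adjusted by Benjamini-Hochberg over all tested genes of a contrast and called at an adjusted p under 0.05. The SE of log2 fold changes had a median of 0.15, or 0.213 for the interaction, which sets the precision at this depth. The procedure was tested on simulated data. Ratios and relative levels were compared by exact permutation over mice and correlations by 100000 permutations (Python 3.11.15, scipy 1.17.1, numpy 2.4.6, pandas 2.3.3, matplotlib 3.10.9).

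GC content came from the longest GENCODE transcript of a gene, and its trend was removed in each library by a local regression as an alternative. Other alternatives were the pseudocount, the filter, the samples fitted, array weights, sex as a covariate, single markers (Csf1r and another) alone as the reference for relative levels, voom on recovered reads, a replicate block, each sex alone, and leaving out each mouse or the libraries with high Ttr. The voom fit, the difference between the sexes, the fit without the Ttr libraries, the shorter C1qc length and the GC correction of values other than the limma contrasts were chosen after seeing the data. The edgeR and DESeq2 tests that had been planned were not run, because the table holds FPKM.

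The members and gene lists were chosen with earlier results of these data known. From each list the text names up to 4 members with the largest change among those called in AD_Veh against WT_Veh, or the most abundant if none was called, plus the main classical pathway genes. The 10 genes most like the subunits were named by mean correlation over deviations from the group means. Some genes that these rules name, and 1 alternative reference, are not reported here. Symbols shared by several genes (103) were kept apart by identifier. Whether replicate numbers pair mice was checked by the correlation of deviations between mice with the same number. Its median lay between -0.0323 and 0.0413, and 3 of 25 libraries correlated best with their own number. No pairing by number was thus detected, though this check cannot exclude one, and the numbers followed the inferred sex.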

Additional observations from a re-analysis of the deposited data

Results flagged for a closer look

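The response to low P differed between the sexes in 5xFAD mice, by a test of the difference itself. The change from AD_Veh to AD_LowP was larger in females than in males by 1.51 log2 units for C1qa (SE 0.35, limma adjusted p = 0.0101), 1.07 for C1qb (SE 0.30, adjusted p = 0.0236) and 1.34 for C1qc (SE 0.32, adjusted p = 0.0108). In the 3 males of each group the log2 changes under low P were -0.80, -0.69 and -0.75, and in the 2 females 0.71, 0.37 and 0.59. All 3 AD_LowP males, at 50.0 to 74.4 FPKM of C1qa, lay below all AD_Veh males, at 101.5 to 130.9, and both AD_LowP females, at 102.4 and 129.8, lay above both AD_Veh females, at 59.4 and 83.3. Of all tested genes 16.8% were called in this test, and C1qa, C1qb and C1qc ranked 714, 1533 and 751 by p. The GC slopes of the AD_LowP libraries divided by sex as well, higher in females, and those of AD_Veh divided by sex in the opposite direction. With the GC trend removed the differences were 0.85, 0.56 and 0.81 (adjusted p = 0.125, 0.301 and 0.113), and 3.13% of genes were called. The sexes were inferred from Xist and Y-linked transcripts, with 2 females in a group. No subunit's difference between sexes was called in another contrast (adjusted p at least 0.0683).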

How the results depend on the processing

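The rise of all 3 subunits in AD_Veh and in AD_HighP kept its direction under every alternative computed, and its call with 1 exception: C1qc in AD_HighP against WT_HighP among females alone, at 1.17 (adjusted p = 0.119). In WT_HighP against WT_Veh, C1qa and C1qc passed when only those groups were fitted (0.767, adjusted p = 0.0401, and 0.574, 0.0391) and with array weights (0.725, 0.0147, and 0.508, 0.0422), and C1qa among females alone (0.796, 0.0432). Leaving out each mouse gave 0.667 to 0.922 for C1qa and 0.478 to 0.674 for C1qc, which passed without WT_Veh replicate 1 (adjusted p = 0.0199 and 0.0387). The number of genes called there was 522, against 3371 with array weights, 2278 in females alone, 1513 with only those groups fitted, 829 with sex as a covariate, 533 with voom, 218 with the replicate block, 22 with the GC correction and 11 with both. It was 0 in males alone, with no filter and without the high-Ttr libraries. It was 2724 without WT_Veh replicate 1, 64, 88, 1 and 0 without WT_Veh replicates 2 to 5, and 1, 1, 0, 3 and 411 without WT_HighP replicates 1 to 5. AD_Veh against WT_Veh called 811 genes with array weights, 309 in males and 215 in females, and AD_HighP against WT_HighP 970, 124 and 76, with 517 when only its groups were fitted and 132 without the high-Ttr libraries. Females alone called 751 genes in AD_LowP against AD_Veh and 14 in AD_HighP against AD_Veh, and males alone 329 in AD_HighP against AD_LowP. The cause was not tested. The replicate block changed no call of a subunit, and no pairing by number had been detected. Limma with the block gave adjusted p = 2.88e-06, 5.01e-06 and 6.15e-06 for AD_Veh against WT_Veh. For WT_HighP against WT_Veh it gave 0.0741, 0.168 and 0.112. It called 479 and 275 genes where 510 and 288 were called in the 2 genotype comparisons. The edgeR and DESeq2 tests were not run.

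Other sign changes were in comparisons that were not called. AD_HighP against AD_LowP was -0.111, -0.0024 and -0.0575 with the GC correction, with or without the replicate block, -0.118 for C1qa and -0.102 for C1qc with array weights, and -0.154 to 0.188 for C1qa and -0.0693 to 0.201 for C1qc over left-out mice. Females alone gave 0.709, 0.374 and 0.591 for AD_LowP against AD_Veh, 0.0733 for C1qa and 0.0332 for C1qc in AD_HighP against AD_Veh, and -0.635, -0.391 and -0.558 for AD_HighP against AD_LowP. Of the log2 ratios, C1qc to C1qb in AD_HighP against WT_HighP was -0.0102 with a pseudocount of 1. Over left-out mice the ranges of the ratios were as follows. C1qb to C1qa gave -0.0505 to 0.0961 (AD_HighP against AD_Veh) and -0.165 to 0.0161 (AD_LowP against AD_Veh). C1qc to C1qa gave -0.0436 to 0.0850 (AD_HighP against AD_LowP), -0.0295 to 0.0498 (AD_HighP against AD_Veh) and -0.0710 to 0.0575 (AD_LowP against AD_Veh). C1qc to C1qb gave -0.106 to 0.00809, -0.0651 to 0.0336 and -0.0122 to 0.108 in those 3 comparisons and -0.0416 to 0.0619 in AD_HighP against WT_HighP.

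Relative to the 15 markers with the GC correction, WT_HighP against WT_Veh was 0.155 for C1qb, AD_HighP against AD_Veh -0.0775, -0.0343 and -0.0348, and AD_HighP against AD_LowP -0.0579 for C1qa and -0.0043 for C1qc. Over left-out mice these relative levels gave, for AD_HighP against AD_LowP, -0.102 to 0.237 for C1qa and -0.0166 to 0.278 for C1qc. For AD_HighP against AD_Veh they gave -0.105 to 0.210, -0.00922 to 0.160 and -0.0743 to 0.182, and for AD_LowP against AD_Veh -0.194 to 0.169, -0.217 to 0.00333 and -0.197 to 0.0975. For C1qb in WT_HighP against WT_Veh they gave 0.349 to 0.553, not passing without WT_Veh replicate 3 (adjusted exact p = 0.0635).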
